A study of Mus musculus with 6 samples.

Results

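The cytosolic ribosomal protein genes were followed in cultured mesoderm explants of mouse embryos treated with either of 2 inhibitors. They were chosen by name alone, as all genes of the deposited count tables called Rpl or Rps followed by a number, with or without a final a or x, together with Rplp0, Rplp1, Rplp2 and Rpsa. This rule took 76 of 46078 genes, 46 of the large subunit and 30 of the small subunit. It left out pseudogenes with a ribosomal protein name and paralogs whose names end in l. All 76 genes had enough counts to be tested.

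RNA-seq had been done on 6 libraries in 3 groups of 2. PD explants were kept for 16 h in 1 µM of an inhibitor that the labels name only as PD, YZ9 explants for 16 h in 10 µM YZ9, known as an inhibitor of the glycolytic regulator PFKFB3, and control explants without either, and whether the controls received the vehicle was not stated. All explants were mesoderm cut at E7.25 from embryos whose genotype the labels give as WT and whose strain the series description gives as the reporter TCF/Lef:H2B-GFP, and all were cultured for 27 h per the growth protocol, or 24 h per the series description, on fibronectin with rat serum in the medium. How many embryos went into a library was not stated, so p-values measure only the spread between these libraries.

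Libraries held 21253194 to 27810161 counts. By Xist and Y-linked counts, PD 2 and YZ9 2 were female and the other 4 libraries male. A list of 20 mesoderm markers summed to 2315 to 3468 CPM (counts relative to a library total scaled by TMM) over the 6 libraries. Fn1, Vim, Hand1 and Cdh2 were the 4 highest in each. The streak and early mesoderm genes T, Tbx6 and Mesp1 were at 0 to 8 counts in every library. Mixl1, of the same list, had 1 and 6 counts in PD 1 and PD 2, 21 and 326 in YZ9 1 and YZ9 2, and 93 and 39 in control 1 and control 2. Markers of definitive endoderm and epithelium summed to 10924 and 6969 CPM in PD 1 and PD 2, 6652 and 5363 CPM in YZ9 1 and YZ9 2, and 5312 and 4689 CPM in control 1 and control 2. Krt8 and Krt18 were the main part of this sum in all libraries. Cdh1, Epcam, Cldn6, Foxa1 and Foxa2 were at 0 to 8.28 CPM in controls and higher in all inhibitor libraries. Sox17 overlapped the controls in both inhibitor groups, and Krt18 did with YZ9. Below, 2 values of a group are those of its replicates 1 and 2.

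Ribosomal proteins assemble on ribosomal RNA into the small subunit, which reads the messenger RNA, and the large subunit, which joins amino acids. Each protein is needed in about equal number, and their genes are among the most strongly and evenly transcribed of growing cells. In mammals their messenger RNAs begin with a run of pyrimidines, the 5′ terminal oligopyrimidine (TOP) motif, through which mTOR signalling governs their translation, so that output can change without a change in the RNA level that was measured here.

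Transcript starts of 6 members are shown because the pyrimidine run is the feature that ties the family together, and because the results below turn on these genes. Each stretch covers 30 bases before to 20 bases from the annotated start, 5′ to 3′ on the transcript strand, from RefSeq on GRCm38.p6, and capitals mark runs of 8 or more C or T.
Rpl28: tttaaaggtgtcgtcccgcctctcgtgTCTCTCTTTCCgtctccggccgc
Rpl38: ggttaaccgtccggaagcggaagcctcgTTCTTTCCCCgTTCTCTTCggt
Rplp2: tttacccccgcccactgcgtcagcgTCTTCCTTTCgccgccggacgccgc
Rps6: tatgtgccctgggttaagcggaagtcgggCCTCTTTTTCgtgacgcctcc
Rpl37: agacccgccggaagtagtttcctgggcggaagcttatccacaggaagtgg
Rpl26: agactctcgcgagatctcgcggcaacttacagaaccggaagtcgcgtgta
They lie at chr7:4792935-4792984 on the plus strand (Rpl28), chr11:114668550-114668599 on the plus strand (Rpl38), chr7:141447621-141447670 on the plus strand (Rplp2), chr4:86857348-86857397 on the minus strand (Rps6), chr15:5116583-5116632 on the plus strand (Rpl37) and chr11:68901536-68901585 on the plus strand (Rpl26). In Rpl28, Rpl38, Rplp2 and Rps6 a run spans or lies just beside the start, and the windows of Rpl37 and Rpl26 hold none. In GENCODE these 2 genes begin further on, at chr15:5116645 and chr11:68901583. The Rpl37 window ends before that start and the Rpl26 window just past it. They thus cannot show whether a run follows those starts. Rpl28, Rpl38, Rplp2 and Rps6 begin before their windows in GENCODE, at chr7:4792874, chr11:114668524, chr7:141447370 and chr4:86857412. For these genes the run lies at the RefSeq start only.

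The RefSeq promoters of 56 of the 76 members were searched, each from 250 bases before to 50 bases after a start. A run of 8 or more C or T on the transcript strand, between 30 bases before and 50 bases after the start, was found in 45 of 56 (80.4%), against 32.3% of the 27025 genes in the table. The letters CCGGAAG, the core bound by ETS factors, occurred on either strand in 23 of 56 (41.1%), against 9.93% of all genes. AAGATGGC, a core bound by YY1, occurred on either strand in 5 (8.93%, against 3.19%), and TATAA, 40 to 15 bases before the start, in 4 (7.14%, against 4.22%). The median log2 fold change of PD over control was -0.16 in the 45 with a pyrimidine run and -0.16 in the 11 without, and -0.18 in the 23 with CCGGAAG and -0.15 in the 33 without. For YZ9 over control it was -0.09 with a run and -0.09 without, -0.12 with CCGGAAG and -0.06 without, and -0.16 in the 4 with TATAA and -0.09 in the 52 without. With PD it was -0.16 in the 4 with TATAA and -0.16 in the 52 without. In the 5 with AAGATGGC and the 51 without it was -0.13 and -0.16 for PD over control, and -0.09 and -0.09 for YZ9 over control. These differences were not tested.

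The 76 genes together made up 2.63% and 2.85% of all counts in PD explants, 2.93% and 3.24% in YZ9 explants, and 2.91% and 3.16% in control explants. Both PD values lay below both control values, whereas the YZ9 values overlapped the control values. The means were 2.74% ± 0.156 with PD, 3.09% ± 0.220 with YZ9 and 3.03% ± 0.176 in controls (SD, n = 2 each), and with 2 libraries a group no permutation test could pass 0.05, so none is given. On the TMM scale the summed level was 27388 and 29157 CPM with PD, 27915 and 30421 CPM with YZ9, and 29678 and 32713 CPM in controls, so that both PD libraries again lay below both controls and YZ9 2 lay between the controls. In such bulk libraries fewer cells rich in these transcripts and less of the RNA per cell cannot be told apart, and a share of counts says nothing of the total RNA in an explant.

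The subunits kept their ratio. Large subunit genes took 1.54% and 1.70% of counts with PD, 1.74% and 1.92% with YZ9, and 1.73% and 1.85% in controls. Small subunit genes took 1.09% and 1.16% with PD, 1.19% and 1.32% with YZ9, and 1.18% and 1.31% in controls. The ratio of the large to the small subunit sum stayed between 1.41 and 1.47 in all 6 libraries.

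In each group replicate 2 had the higher ribosomal protein sum. It also had the higher blood marker sum and the lower sum of the endoderm and epithelium markers given above. The latter sum was mainly Krt8 and Krt18, and in controls Cdh1, Epcam and Cldn6 were higher in replicate 2. The summed blood marker level was 489 and 6553 CPM with PD, 89.9 and 1200 CPM with YZ9, and 2516 and 7431 CPM in controls. The 7 blood markers were all detected, and the globin genes Hba-x, Hbb-bh1 and Hbb-y were the main part of the sum in all libraries but YZ9 1, where Runx1 was highest. The part of either marker list in the ribosomal protein levels was not tested.

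No ribosomal protein gene passed the test in any comparison. By edgeR's quasi-likelihood test with Benjamini-Hochberg adjustment over 15568 genes, 0 of 76 members had an adjusted p under 0.05 for PD against control, where 0.0964% of all genes did, 0 for YZ9 against control, where 0.00642% did, and 0 for PD against YZ9, where 0.122% did. At an unadjusted p under 0.05 the members numbered 3, 1 and 0 in these comparisons, while 10.8%, 11.3% and 11.5% of all genes passed. DESeq2 and limma also called 0 members, and in the authors' deposited table, from DESeq2, 0 of 76 were under 0.05 for PD, where 3.67% of genes were, and 0 for YZ9, where 3.85% were. Before adjustment, a member's 95% interval for PD against control typically reached 0.33 to either side of its log2 fold change. Larger changes could also miss the threshold with 2 libraries a group. Rpl37, at -0.37, had an adjusted p of 0.346 by the edgeR test. In simulated data 19 of 68 genes changed by 1 on the log2 scale were called. Those genes were drawn from many levels, with the spread typical of their level over all genes. The members' own spread was not used (median SE 0.14 for PD against control), so that share does not give how often a changed member would be called.

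Although no single gene passed, the fitted fold changes of PD against control lay nearly all on one side. The median log2 fold change was -0.15 over the 76 members, a change of -10.0%, against a median of 0.0044 over all genes tested. Of the 76, 75 were below 0, where 49.5% of all genes were, and 73 with DESeq2-type size factors, under which Rps19 and Rps20 were just above 0. In 48 members both PD libraries were below both controls, where 19.5% of all genes showed this, and in 0 members both were above, where 19.2% of all genes did. The 4124 other genes with a mean of at least 50 CPM had a median of -0.0041. These counts run over genes that share the same 4 libraries and their scaling, so they are not independent of each other. The median was -0.17 in the large subunit and -0.15 in the small subunit.

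**Figure D1:**
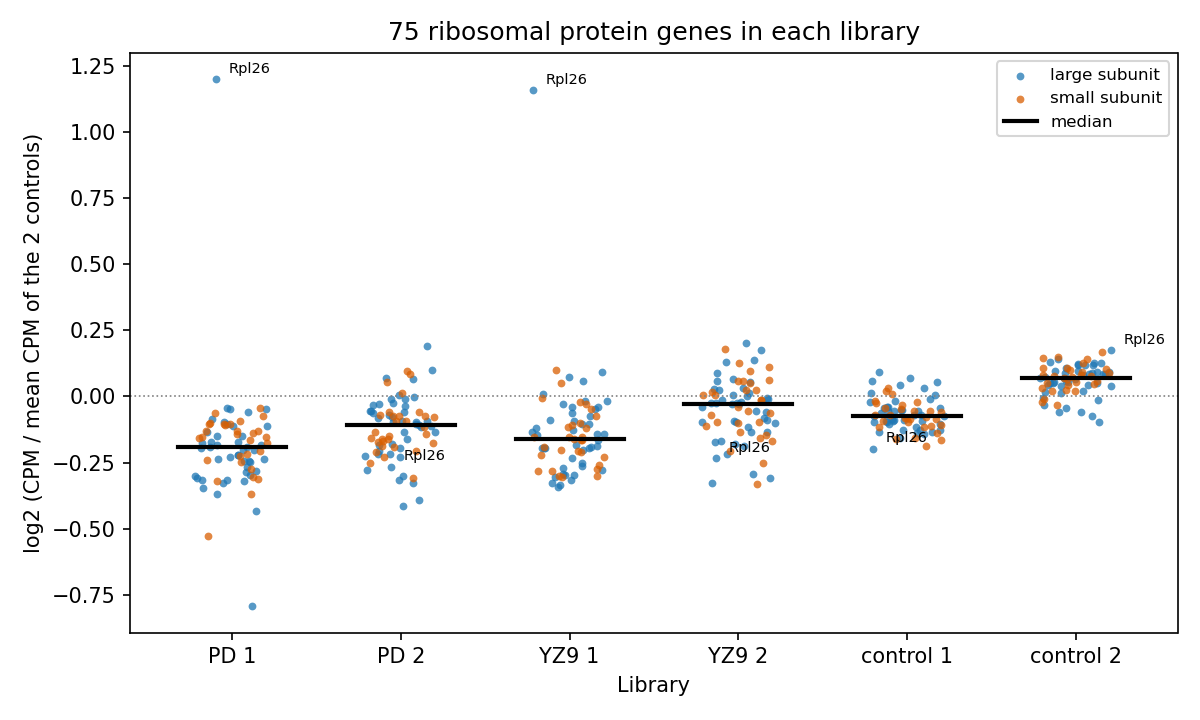
Level of each ribosomal protein gene in each library as the log2 ratio to the mean CPM of both controls, with large subunit genes in blue, small subunit genes in orange and black lines at the medians (75 genes, without Rpl24). The medians of PD 1, PD 2 and YZ9 1 sit below the zero line and both controls sit close to it on either side, while Rpl26 stands far above the other genes in PD 1 and YZ9 1.

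The size of the shift depended on which libraries were compared. Without control 2 the median for PD against control was -0.08 with 59 of 76 members below 0, and without control 1 it was -0.21. Without PD 1 it was -0.11 with 67 below 0, and without PD 2 it was -0.19. With sex in the model it was -0.21. As PD 2 and YZ9 2 were the only female libraries, that fit rests on the split between replicates 1 and 2 of the inhibitor groups. The sign of the median was negative in each of these fits.

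Against the same controls, YZ9 explants showed a smaller shift. The median log2 fold change was -0.09, with 63 of 76 members below 0, where 49.8% of all genes were. Both YZ9 libraries were below both controls in 27 members, where 24.5% of all genes showed this, and above both in 3 members, where 21.1% did. The 4124 other genes with a mean of at least 50 CPM had a median of -0.06. Scaling by total counts turned the members' median to 0.037, with 29 of 76 below 0, but moved the median of all genes to 0.12, and relative to that median the members stayed at -0.09. The median was -0.04 without control 2, -0.018 without YZ9 1 with 47 members below 0, -0.17 without control 1, -0.14 without YZ9 2 and -0.16 with sex in the model.

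PD and YZ9 explants were also set directly against each other. The median log2 fold change of PD over YZ9 was -0.06, with 57 of 76 members below 0, where 50.1% of all genes were. The 4124 other genes with a mean of at least 50 CPM had a median of 0.07, with 1661 of them below 0. Both PD libraries were below both YZ9 libraries in 17 members, where 21.4% of all genes showed this, and above both in 2, Rpl23a and Rps28, where 21.6% did. Under total-count scaling the median was -0.18, with the median of all genes at -0.13, so relative to all genes it was -0.05. Without PD 1 the members' median relative to that of all genes turned to 0.018, with 30 of 76 members below the median of all genes, and without YZ9 1 it was -0.13. As PD and YZ9 were compared with the same 2 control libraries, their fold changes against control are not independent.

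**Figure D2:**
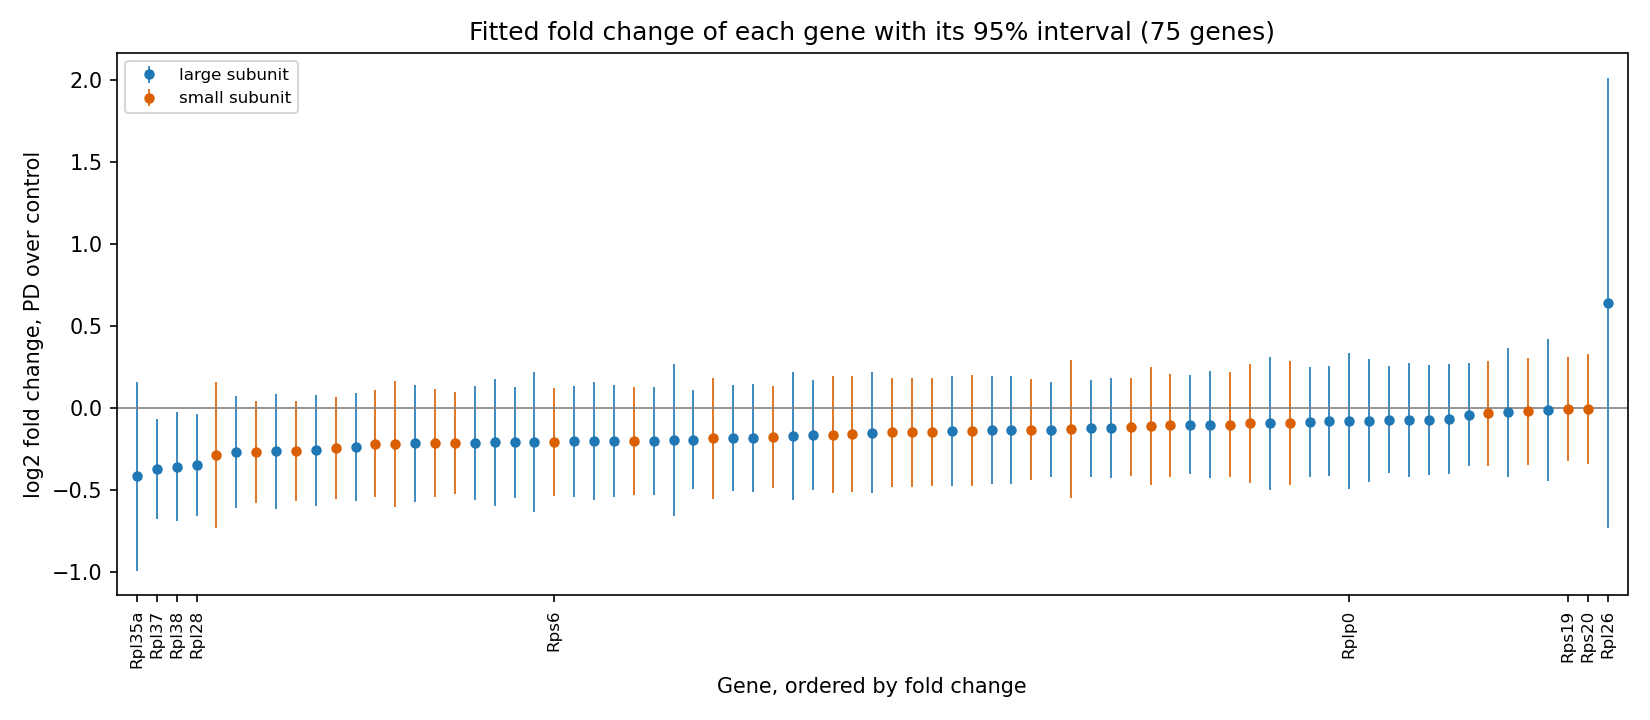
Fitted log2 fold change of PD over control for 75 ribosomal protein genes (without Rpl24), ordered from lowest to highest, with vertical lines for the 95% intervals and 9 of the genes labelled. All points but that of Rpl26 lie below 0 with TMM scaling (Rps19 and Rps20 are just above it with DESeq2-type size factors), and the intervals of Rpl37, Rpl38 and Rpl28 alone exclude 0 before adjustment.

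Apart from Rpl24 and Rpl35a, described below, the lowest fold changes with PD belonged to 3 large subunit proteins. Rpl37 (ENSMUSG00000041841, chr15:5116645-5119140 on GRCm38), a small zinc-binding protein of the large subunit, was at 278 and 262 CPM with PD, 280 and 281 CPM with YZ9, and 336 and 361 CPM in controls. All 4 inhibitor libraries were below both controls. Its log2 fold change was -0.37 with PD (SE 0.13, adjusted p = 0.346, edgeR's quasi-likelihood test) and -0.31 with YZ9 (SE 0.13, adjusted p = 0.428), and before adjustment the 95% intervals ran from -0.67 to -0.07 and from -0.62 to -0.0080.

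Rpl38 (ENSMUSG00000057322, chr11:114668524-114672331), whose loss in mice alters the axial skeleton and the translation of some Hox messenger RNAs, was at 149 and 141 CPM with PD, 151 and 148 CPM with YZ9, and 174 and 197 CPM in controls. Again all 4 inhibitor libraries were below both controls. The log2 fold change was -0.36 with PD (SE 0.14, adjusted p = 0.415) and -0.31 with YZ9 (SE 0.14, adjusted p = 0.463).

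Rpl28 (ENSMUSG00000030432, chr7:4792874-4795066), a large subunit protein that budding yeast lacks, was at 129 and 133 CPM with PD, 162 and 161 CPM with YZ9, and 171 and 163 CPM in controls. Here the PD libraries stood below the other 4, and the YZ9 libraries were just under the controls. The log2 fold change was -0.35 for PD over control (SE 0.13, adjusted p = 0.393), -0.05 for YZ9 over control (SE 0.13, adjusted p = 0.905) and -0.30 for PD over YZ9 (SE 0.13, adjusted p = 0.459). Its replicates, with those of Rpl41 and Rpl37a, were the closest to each other of all members.

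In other large subunit members the PD and YZ9 libraries did not overlap, but none passed the threshold. Such a lack of overlap was no rarer over all genes. PD was below YZ9 in 22.4% of members and 21.4% of all genes, and above in 2.63% and 21.6%. Rpl36 was at 149 and 173 CPM with PD, 194 and 202 CPM with YZ9, and 192 and 177 CPM in controls, so that the PD values were lowest and the YZ9 values highest (PD over YZ9 -0.30, SE 0.14, adjusted p = 0.490). Rpl10a, a protein found to be unevenly present among ribosomes in mouse embryonic stem cells, was at 109 and 111 CPM with PD, 123 and 131 CPM with YZ9, and 112 and 119 CPM in controls. These groups did not overlap either (PD over YZ9 -0.21, SE 0.14, adjusted p = 0.614). Rpl23a, which lies at the exit of the peptide tunnel, ran the other way with 57.7 and 59.5 CPM with PD, 50.7 and 54.3 CPM with YZ9, and 54.6 and 64.6 CPM in controls (PD over YZ9 0.16, SE 0.16, adjusted p = 0.761).

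Rpl35, also near the tunnel exit, was at 357 and 300 CPM with PD, 293 and 302 CPM with YZ9, and 331 and 408 CPM in controls. Its log2 fold change of YZ9 over control was -0.31 (SE 0.16, adjusted p = 0.518), with both YZ9 libraries below both controls and the PD libraries overlapping them. Rpl4, which lines the tunnel, was at 1776 and 1925 CPM with PD, 1652 and 1919 CPM with YZ9, and 1928 and 2133 CPM in controls, with both inhibitor groups below both controls (PD over control -0.13, SE 0.14, adjusted p = 0.848). Rpl41, the smallest ribosomal protein, was at 559 and 574 CPM with PD, 562 and 578 CPM with YZ9, and 603 and 637 CPM in controls, and here too all 4 inhibitor libraries were lower (PD over control -0.13, SE 0.12, adjusted p = 0.824). Rpl37a likewise was at 260 and 255 CPM with PD, 256 and 261 CPM with YZ9, and 283 and 305 CPM in controls (PD over control -0.19, SE 0.13, adjusted p = 0.697). Rpl29, known to bind heparin at the cell surface, was among the lowest at 24.4 and 28.1 CPM with PD, 28.2 and 26.4 CPM with YZ9, and 29.5 and 30.4 CPM in controls.

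Rpl5 and Rpl11, which bind the 5S ribosomal RNA and can hold back Mdm2, were close to the family, with log2 fold changes of -0.09 and -0.14 for PD over control and -0.05 and -0.09 for YZ9 over control.

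The stalk of the large subunit, which calls in elongation factors, is built from Rplp0, Rplp1 and Rplp2. Rplp0 was at 1346 and 1758 CPM with PD, 1485 and 1741 CPM with YZ9, and 1545 and 1733 CPM in controls, with each group's values spanning much of the whole range (PD over control -0.08, SE 0.17, adjusted p = 0.948). Rplp1 was at 224 and 301 CPM with PD, 263 and 291 CPM with YZ9, and 284 and 321 CPM in controls, again with overlap (PD over control -0.21, SE 0.18, adjusted p = 0.802). Rplp2 was at 200 and 231 CPM with PD, 228 and 233 CPM with YZ9, and 265 and 233 CPM in controls, so that the PD values lay just below both controls (PD over control -0.21, SE 0.15, adjusted p = 0.721).

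In the small subunit, Rps6 is the protein phosphorylated by the S6 and RSK kinases. It was at 480 and 493 CPM with PD, 485 and 523 CPM with YZ9, and 518 and 603 CPM in controls. Both PD libraries were below both controls and YZ9 2 was above control 1. The log2 fold change was -0.21 with PD (SE 0.14, adjusted p = 0.707) and -0.15 with YZ9 (SE 0.14, adjusted p = 0.702).

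Rpsa, also known as the laminin receptor precursor, was at 263 and 280 CPM with PD, 289 and 299 CPM with YZ9, and 298 and 290 CPM in controls, with PD below both other groups (PD over control -0.11, SE 0.13, adjusted p = 0.860). Rps3, at the entry of the messenger RNA channel, was at 929 and 981 CPM with PD, 887 and 1014 CPM with YZ9, and 1033 and 1159 CPM in controls. Rps3 is, with Rpl4 and Rplp0, the highest member in CPM, and both inhibitor groups were below both controls (-0.20 with PD, adjusted p = 0.720, and -0.21 with YZ9, adjusted p = 0.610). Rps19, the gene most often mutated in human Diamond-Blackfan anaemia, was at 595 and 645 CPM with PD, 580 and 624 CPM with YZ9, and 588 and 657 CPM in controls. The groups overlapped throughout, and its 95% interval for PD over control ran from -0.32 to 0.32.

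Rps20 was the member nearest to no difference with PD, at 229 and 264 CPM with PD, 256 and 279 CPM with YZ9, and 243 and 251 CPM in controls. The YZ9 libraries were above both controls and the PD libraries on either side of them (YZ9 over control 0.12, SE 0.14, adjusted p = 0.781). Rps28 was at 105 and 99.1 CPM with PD, 96.9 and 95.1 CPM with YZ9, and 109 and 117 CPM in controls, with both inhibitor groups below the controls, and PD above YZ9 except under total-count scaling, where PD over YZ9 was -0.036 (YZ9 over control -0.24, SE 0.14, adjusted p = 0.568).

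The X-linked members were read with the sex of the libraries in view. Rpl10 was at 454 and 517 CPM with PD, 506 and 505 CPM with YZ9, and 546 and 494 CPM in controls. Rpl36a was at 173 and 169 CPM with PD, 173 and 206 CPM with YZ9, and 180 and 215 CPM in controls. Rpl39 was at 80.0 and 83.2 CPM with PD, 82.7 and 88.2 CPM with YZ9, and 90.7 and 97.7 CPM in controls. The female libraries PD 2 and YZ9 2 did not stand apart from the male ones in any of these. Rps4x followed the family as well, at 431 and 425 CPM with PD, 394 and 448 CPM with YZ9, and 435 and 522 CPM in controls.

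**Figure D3:**
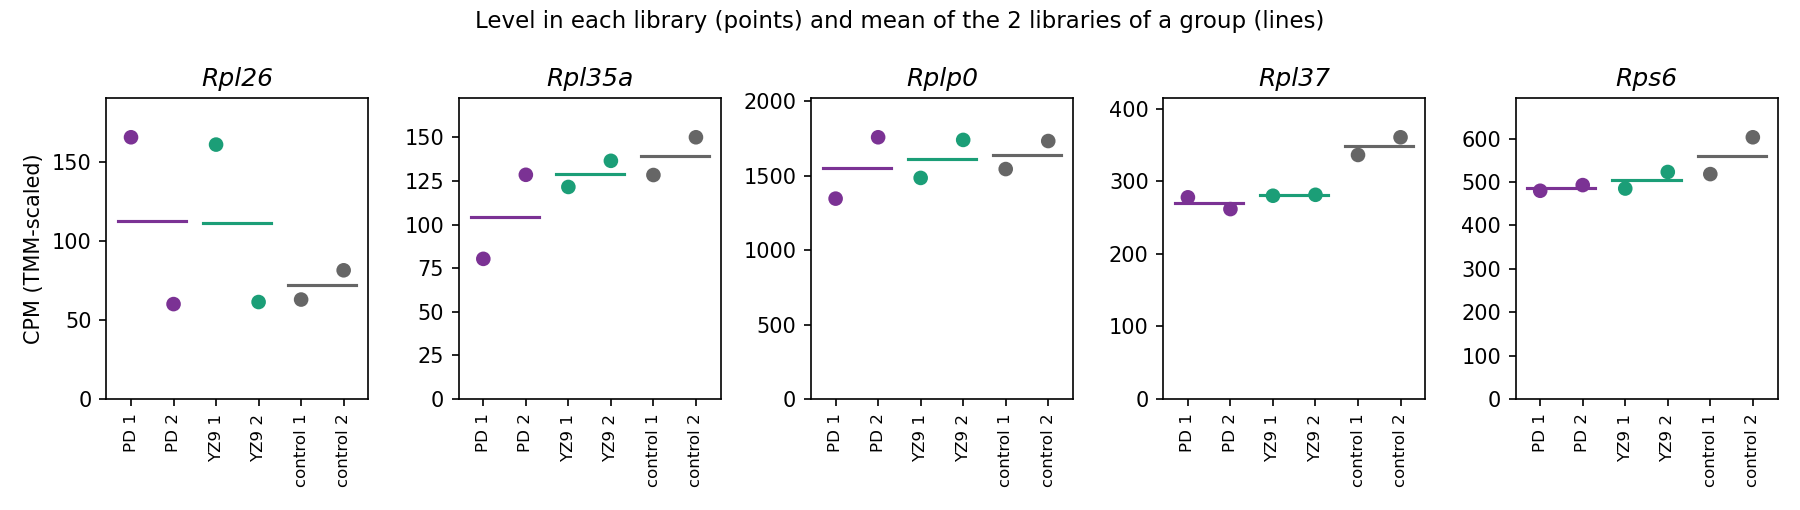
Level of Rpl26, Rpl35a, Rplp0, Rpl37 and Rps6 in each library (points, TMM-scaled CPM on an axis from 0) with the mean of both libraries of a group (lines). Rpl26 is high in PD 1 and YZ9 1 only, Rpl35a is low in PD 1, and Rpl37 is below both controls in all 4 inhibitor libraries.

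Rpl26 (ENSMUSG00000060938, chr11:68901583-68906989), a large subunit protein known in human cells to bind p53 messenger RNA, did not follow the family. It was at 165 and 60.0 CPM with PD, 161 and 61.3 CPM with YZ9, and 62.9 and 81.4 CPM in controls. PD 1 and YZ9 1 were at least 1.98-fold above each of the other 4 libraries, which lay together. The log2 fold changes of 0.64 with PD (SE 0.57, adjusted p = 0.809) and 0.62 with YZ9 (SE 0.57, adjusted p = 0.709) thus each rested on 1 library, and they were -0.26 without PD 1 and -0.23 without YZ9 1. The high libraries were the male ones of the inhibitor groups and the low ones the female ones, while both controls, also male, were low. With sex in the model the log2 fold changes were 1.18 with PD (SE 0.20, adjusted p = 0.0616) and 1.17 with YZ9 (SE 0.20, adjusted p = 0.0666). Within the inhibitor groups, sex and the other differences between replicates 1 and 2 cannot be told apart.

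No other member had both of these libraries at least 1.5-fold above the other 4, and 204 of 15568 genes (1.31%) did. Of the 5 epithelial markers Cdh1, Epcam, Cldn6, Krt8 and Krt18, the first 3 met the same 1.5-fold rule. Unlike Rpl26, these 3 were also higher in PD 2 and YZ9 2 than in both controls. Sox17, from the wider list of endoderm and epithelium markers, also met the rule. It was at 16.5 and 6.32 CPM with PD, 21.7 and 7.96 CPM with YZ9, and 9.67 and 4.44 CPM in controls. Its PD 2 and YZ9 2 values thus lay between those of the controls. Foxa1 and Foxa2, from the same wider list, were lower in YZ9 1 than in PD 2 and did not meet the rule. Cdh1, the epithelial cadherin, was at 79.8 and 21.6 CPM with PD, 113 and 30.7 CPM with YZ9, and 1.84 and 3.80 CPM in controls. The part of these markers in the Rpl26 level was not tested. The pattern of PD 1 and YZ9 1 above the other libraries was looked for after the values of Rpl26 were seen.

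Rpl35a (ENSMUSG00000060636, chr16:33056453-33060189), a gene mutated in some human Diamond-Blackfan anaemia, was at 80.3 and 129 CPM with PD, 122 and 137 CPM with YZ9, and 128 and 150 CPM in controls. PD 1 alone was low. The log2 fold change of PD over control was -0.41 (SE 0.24, adjusted p = 0.638), and without PD 1 it was -0.11.

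Rpl24 (ENSMUSG00000098274, chr16:55966275-55971435), whose mutation in the mouse causes a belly spot and a kinked tail, was barely counted. It had 7 and 7 counts with PD, 13 and 21 with YZ9, and 11 and 20 in controls, or 0.269 to 0.753 CPM in the 6 libraries, below every other member. The annotation places another gene, Gm28037, over its exons on the same strand, so its level is uncertain. The log2 fold change of PD over control was -1.07 with an SE of 0.69 (adjusted p = 0.692).

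Levels between members can be compared only per length, as CPM per kilobase of the shortest principal transcript, and the choice of transcript makes them rough. On this scale the 6-library mean was 1634 CPM per kilobase for Rpl32, 1340 for Rpl41, 1228 for Rpl4 and 1179 for Rplp0, all among the higher members. It was lowest for Rpl24 at 0.740, Rpl29 at 47.8 and Rps20 at 68.4 CPM per kilobase. The value of Rps20 rests on an annotated transcript of 3706 bases, so it may be too low. In counting, 24 members overlap a small nucleolar RNA in an exon, 18 a gene on the opposite strand and 4 another long gene on the same strand, and the library kit does not keep the strand.

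Once the common shift of each library was taken away, the members kept a nearly fixed proportion to each other. The range of a member's log2 level relative to the family over the 6 libraries had a median of 0.20, was under 0.3 in 62 of 76 members and under 0.5 in 73. The remaining 3 were Rpl26 with 1.58, Rpl24 with 1.25 and Rpl35a with 0.66. This range was not taken for other genes of similar level, so whether it is particular to the family was not tested.

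By transcript length, the shorter members had the lower medians with PD. The median log2 fold change of PD over control was -0.19 in the 28 members under 600 bases, -0.16 in the 31 of 600 to under 1000 bases and -0.10 in the 17 of 1000 bases or more. Among other protein-coding genes it was -0.06 under 600 bases (n = 191), -0.02 at 600 to under 1000 bases (n = 730) and 0.02 above. For YZ9 over control the members' medians were -0.12, -0.07 and -0.06, and those of other genes -0.15, -0.14 and 0.02. With PD the members thus lay below other genes of their length in each class, and with YZ9 the members under 1000 bases did not.

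Ribosomal genes outside the naming rule were read alongside. Of 12 such genes, 9 were tested and 0 passed in any comparison, with median log2 fold changes of -0.17 for PD over control, -0.17 for YZ9 over control and 0.09 for PD over YZ9. Rack1, a signalling scaffold on the small subunit, was at 578 and 631 CPM with PD, 608 and 665 CPM with YZ9, and 708 and 804 CPM in controls (PD over control -0.32, adjusted p = 0.481). Both inhibitor groups were below both controls. Rps3a1 and Rpl36al had -0.19 and -0.20 for PD over control.

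Among these, Rpl22l1, the paralog of Rpl22, ran the other way, at 54.8 and 44.0 CPM with PD, 34.0 and 45.7 CPM with YZ9, and 33.5 and 43.0 CPM in controls (PD over control 0.37). Rpl22 itself was at 104 and 110 CPM with PD, 109 and 116 CPM with YZ9, and 114 and 121 CPM in controls (PD over control -0.13). Rpl10l, Rpl39l and Rpl3l, known from testis or muscle, had 0 to 6 counts in any library and were not tested.

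**Figure D4:**
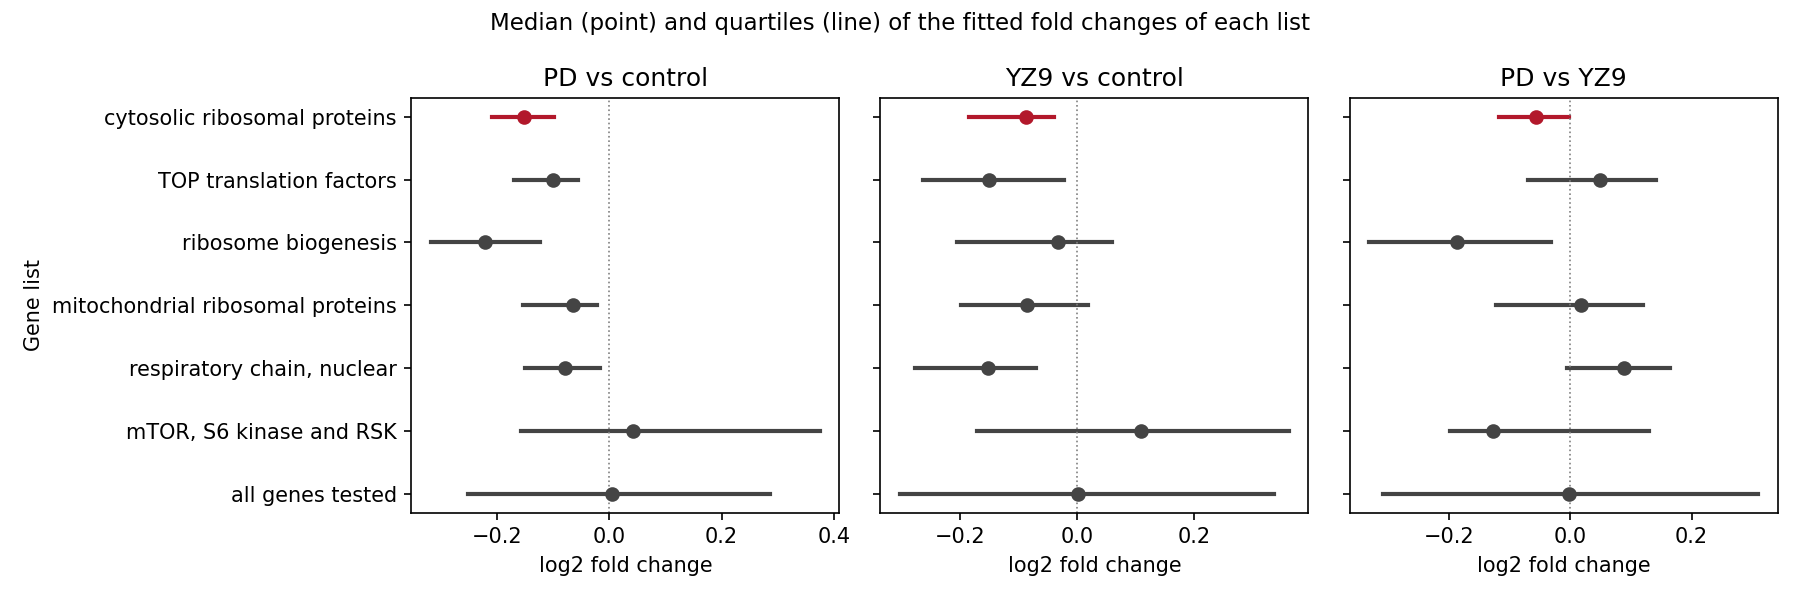
Median (point) and quartiles (line) of the fitted log2 fold changes of each gene list, for PD over control, YZ9 over control and PD over YZ9, with the ribosomal protein genes in red. For PD over control the medians of ribosome biogenesis and of the ribosomal proteins are -0.22 and -0.15, and all genes tested centre on 0.

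Genes that make, serve or govern the ribosome were compared by their counts and medians. In no list did a gene pass the test. The 48 measured ribosome biogenesis genes, which process ribosomal RNA and assemble the subunits, had a median of -0.22 for PD over control with 43 below 0, -0.03 for YZ9 over control with 26 below 0, and -0.19 for PD over YZ9 with 38 below 0. Both PD libraries were below both controls in 22 of them, and above in 0, where 19.5% and 19.2% of all genes were. Gar1, of the particles that guide pseudouridylation, was at 63.7 and 66.1 CPM with PD, 90.5 and 93.7 CPM with YZ9, and 91.0 and 85.4 CPM in controls. PD stood below both other groups (PD over control -0.44). Tsr1, which matures the small subunit, was at 62.1 and 64.4 CPM with PD, 73.4 and 78.3 CPM with YZ9, and 94.3 and 85.3 CPM in controls, with YZ9 in between (PD over control -0.50).

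The 24 translation factors and other genes known for TOP messenger RNAs had a median of -0.10 for PD over control with 22 below 0, and -0.15 for YZ9 over control with 19 below 0. Nap1l1, a histone chaperone, was at 527 and 471 CPM with PD, 499 and 544 CPM with YZ9, and 643 and 753 CPM in controls, with both inhibitor groups below the controls (PD over control -0.48). The 7 tested host genes of small nucleolar RNAs had medians of -0.30 for PD over control and -0.02 for YZ9 over control. The 77 mitochondrial ribosomal protein genes had medians of -0.06 and -0.09, and the 80 nuclear genes of the respiratory chain -0.08 and -0.15, in the same comparisons.

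The 20 genes of mTOR, S6 kinase and RSK signalling had medians of 0.04 for PD over control and 0.11 for YZ9 over control. Rps6ka6, an RSK family kinase gene, was at 99.0 and 115 CPM with PD, 87.1 and 147 CPM with YZ9, and 64.4 and 70.2 CPM in controls. Both inhibitor groups were above the controls (PD over control 0.67). Rheb, which activates mTOR complex 1, was at 516 and 403 CPM with PD, 285 and 317 CPM with YZ9, and 347 and 448 CPM in controls. PD was above YZ9 and overlapped the controls, and both YZ9 libraries were below both controls (PD over YZ9 0.61, YZ9 over control -0.40).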

How the data were processed

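RNA-seq counts of 6 mouse explant libraries were analysed. Per the submitters' processing notes, CASAVA 1.8.2, STAR 2.7.9a and DESeq2 1.40.1 were used with GRCm38; the counter and annotation were not stated in the sources used here. Per the file headers, the authors deposited counts for each library, here whole numbers, and both tables were joined on their identical control columns. The authors also deposited normalized counts as a signal, log2 fold changes, and p-values with adjusted p-values from DESeq2, and its test statistic as a score; of these only the p-values and log2 fold changes were read, as the authors' table, within each table.

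Genes were kept by filterByExpr (minimum count 10, total 15; 15568 genes), scaled by TMM and compared in edgeR 4.0.16 (R 4.3.3) by the quasi-likelihood test with all 6 libraries in 1 fit, 2-sided, with Benjamini-Hochberg adjustment over all tested genes at 0.05. The SE of a log2 fold change is its size divided by the root of the test's F value. CPM use TMM-scaled totals. Rows with a blank symbol held 0.207% to 0.240% of counts, and 278 pseudogene rows with a ribosomal protein name 0.0849% to 0.106%. In simulated data for PD against control over 15109 genes, the fit called 19 of 68 genes changed by 1 on the log2 scale, 50 of 66 changed by 2, 64 of 66 changed by 3 and 6 of 14909 unchanged ones. The simulated spread followed the trend over all genes, not that of the members. Totals of 21253194 to 27810161 make counting error small beside the spread between libraries. Lengths and positions are from GENCODE on GRCm38. Alternatives were limma 3.58.1, DESeq2 1.42.0, other scalings and filters, a replicate block, sex, and leaving out each library.

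The members, the gene lists and the rule for named members were chosen with earlier results of these data known. That rule took the members with the 3 highest and 3 lowest fold changes in each comparison, the 3 highest and 3 lowest levels, the 3 largest and 3 smallest replicate gaps, the X-linked members, the stalk proteins, Rpsa and Rps6. From other lists, genes of smallest p were taken. Rpl5, Rpl11, Rpl22 and Cdh1 were named after their values were seen. Some genes are not reported here by name.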

Additional observations from a re-analysis of the deposited data

How the results depend on the processing

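The count of members past an adjusted p of 0.05 was 0 under all 16 alternatives of each comparison. The 397 values of named members under alternatives gave 0 past it, and 31 turned sign. When 1 library was left out, Rpl26 ranged from -0.26 to 1.20 for PD over control, from -0.23 to 1.17 for YZ9 over control and from -0.89 to 0.87 for PD over YZ9, and Rplp0 from -0.28 to 0.10, from -0.13 to 0.095 and from -0.27 to 0.13 in the same comparisons. For PD over control Rps20 then ranged from -0.11 to 0.097 and Rps19 from -0.084 to 0.075, for YZ9 over control Rpl24 from -0.22 to 0.64, and for PD over YZ9 Rpl35 from 0.013 to 0.25. With DESeq2-type size factors and with DESeq2, Rps20 was 0.0068 and 0.0068 and Rps19 0.0057 and 0.0057 for PD over control. With total counts Rplp0 was 0.10 for YZ9 over control, and Rps28 was -0.036 and Rpl26 -0.11 for PD over YZ9. Without PD replicate 1 and YZ9 replicate 1 together, Rpl26 was -0.26, Rplp0 0.10, Rps20 0.098 and Rps19 0.054 for PD over control, Rpl26 -0.23 and Rplp0 0.088 for YZ9 over control, and Rpl26 -0.030, Rplp0 0.016 and Rpl35 -0.0070 for PD over YZ9. Leaving out both libraries, those with the higher summed CPM of epithelial markers in their groups, was chosen after seeing the data. The members' median for PD over control ranged from -0.21 to -0.08 when 1 library was left out. For YZ9 over control it ranged from -0.17 to -0.018, and was 0.037 with total counts and -0.16 with sex in the model. For PD over YZ9 it ranged from -0.12 to -0.01, and was -0.18 with total counts. Subunits apart, the members' shares stand in the report; without the 5 most abundant members the shares were 2.16% ± 0.102 with PD, 2.45% ± 0.152 with YZ9 and 2.39% ± 0.126 in controls (SD, n = 2 each).

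The number of genes called over the whole table, 15, 1 and 19 for PD over control, YZ9 over control and PD over YZ9, changed much. It was 712, 556 and 601 with no filter, 629, 519 and 534 with DESeq2, and 124, 122 and 173 with sex in the model. Without PD replicate 1 and YZ9 replicate 1 it was 276, 138 and 41. With only the 4 libraries of a comparison it was 5 for YZ9 over control and 0 for PD over YZ9, and for PD over YZ9 it was 9 with total counts and 34 with limma. Leaving out 1 library gave 0 to 33, 0 to 9 and 0 to 35. The cause of these changes was not tested. The labels give same-numbered libraries only a number in common, though by their counts PD 1 and YZ9 1 were both male and PD 2 and YZ9 2 both female. With the replicate block 1, 3 and 12 genes were called, and the replicate differences of PD and control correlated at -0.0985, YZ9 and control at 0.166, and PD and YZ9 at 0.353 over genes. With 2 libraries a group, the spread between libraries rather than the counting depth limits what could be detected, and the 95% interval of a typical member spans more than the family's median shift.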
